A study of Mus musculus with 12 samples.

Results

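RasGRP exchange factors, LAT adaptors and the exchange factor Rasgef1a were followed in the Eµ-Myc lymphoma, a B cell tumour of mice in which the immunoglobulin heavy chain enhancer drives a Myc transgene. The 7 genes, Rasgrp1, Rasgrp2, Rasgrp3, Rasgrp4, Lat, Lat2 and Rasgef1a, were matched by symbol among 56748 gene IDs, and all 7 were found. The set was chosen by the measured level of Rasgrp1, near absent in culture and high in lymph nodes. The other RasGRP genes and the LAT genes were added by family name. Rasgef1a was taken with its change against culture known beforehand. For Rasgrp1 and Rasgef1a the values against culture are therefore a description and carry no p-value.

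Poly(A) RNA was sequenced from 12 libraries in 3 groups of 4. Hematogenous libraries came from lymphoma cells sorted from lymph nodes of C57BL/6J mice 18 days after injection, after spread through the blood, and lymphatic libraries from cells sorted from lymph nodes at day 11, after spread through lymphatic vessels. Culture libraries came from the same lymphoma line taken directly from culture, so the Myc transgene is shared by all 3 groups. Route and day change together and cannot be told apart. Age and sex of the mice, the sort gate, and whether the line is a single clone are not given in the sources used here, and replicates are not stated to be separate animals or cultures, so the tests weigh differences against the spread of these libraries alone, which may be technical. Cultured cells carry the tissue entry lymph node as well, and their titles were followed. Assigned counts ran from 5286775 to 25302016 per library. The B lineage genes Cd79a, Cd79b and Pax5 summed to 1812 to 1959 CPM (counts scaled to a common library size) in hematogenous, 1041 to 1578 CPM in lymphatic and 1234 to 1297 CPM in culture libraries, and none of the 3 was at 0 in any group. Lymphatic 4 stood apart by its T cell transcripts, given below, and by transcript length. Relative to the other 3 lymphatic libraries its genes of under 2 kb of exon stood at a median log2 of 0.84 and those of over 8 kb at -0.72. In the hematogenous and culture libraries such medians lay between -0.12 and 0.16. Leaving it out ended no call of the pathway genes named below that were rechecked. Prkcb, Prkch, Prkcq and Unc13d were not among those rechecked. Among the 7 genes it ended the calls of Lat.

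RasGRP proteins load the small GTPases Ras and Rap with GTP. They carry a C1 domain, which in members such as RasGRP1 binds diacylglycerol. This lipid is made by phospholipase C gamma when an antigen receptor is engaged. Members that bind it couple receptor signals to the RAF, MEK and ERK kinases. LAT is a membrane adaptor of T cells that, once phosphorylated on tyrosine, gathers phospholipase C gamma and GRB2. LAT2, also called NTAL or LAB, is a related adaptor of B cells, mast cells and other myeloid cells. Rasgef1a is an exchange factor outside the RasGRP family and has been described as acting on Rap2.

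Upstream sequences are shown for Rasgrp1 and Rasgef1a, the genes with the largest excess and the largest deficit in lymph nodes over culture among the 7, and for Lat, whose window held the only motif match. They are from RefSeq (GRCm38.p6), which had windows for 5 of the 7 genes, and stretches inside annotated exons were left out. Rasgrp1 is read from the minus strand at chr2:117343002-117343127, Rasgef1a from the plus strand at chr6:118011255-118011437 (the more upstream of its starts) and Lat from the minus strand at chr7:126369571-126369818. Capitals mark a motif match.
Rasgrp1: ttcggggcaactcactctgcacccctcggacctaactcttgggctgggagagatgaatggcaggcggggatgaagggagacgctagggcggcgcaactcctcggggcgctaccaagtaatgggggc
Rasgef1a: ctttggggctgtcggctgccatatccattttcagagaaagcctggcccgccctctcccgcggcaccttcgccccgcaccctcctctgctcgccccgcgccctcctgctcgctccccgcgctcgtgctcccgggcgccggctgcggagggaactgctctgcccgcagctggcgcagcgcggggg
Lat: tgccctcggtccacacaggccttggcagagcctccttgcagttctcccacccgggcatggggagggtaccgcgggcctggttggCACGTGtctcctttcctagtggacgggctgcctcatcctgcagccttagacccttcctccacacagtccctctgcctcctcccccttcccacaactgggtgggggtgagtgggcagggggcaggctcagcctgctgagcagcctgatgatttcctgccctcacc
The 250 bases before each of the 8 annotated starts of these 5 genes were searched on both strands for CACGTG (the E-box bound by MYC and MAX), an interferon response core (GAAA, any 2 bases, GAAA), CCGGAAGT (an ETS site), an NF-kB site (GGGAA, any 2 bases, TCC) and GCGTGGG (the EGR core). The single match was CACGTG, starting at position -166 from the Lat start. Among 32851 mouse windows of this length, 6.02% held CACGTG, 2.98% the interferon response core, 2.88% CCGGAAGT, 1.09% the NF-kB site and 4.30% GCGTGGG. A match is a string of letters and not a measured site, and a window without one says nothing about the factor.

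Rasgrp1, the diacylglycerol-regulated Ras activator best known from T cells, was abundant in both lymph node groups and close to undetected in culture. Its levels were 125, 108, 104 and 96.5 CPM in hematogenous 1 to 4, 41.5, 37.9, 43.1 and 27.1 CPM in lymphatic 1 to 4, and 0, 0.174, 0 and 0.115 CPM in culture 1 to 4. The 3 groups did not overlap, and the lowest lymph node library, lymphatic 4, was still far above every culture library. The culture values rest on 2 reads in all, against 4414 in hematogenous and 2594 in lymphatic libraries. Scaled for depth, the count ratio was 2028 for hematogenous over culture (95% counting interval 561 to 16752) and 675 for lymphatic over culture (187 to 5576). These exact binomial intervals cover counting error only and are no test of the groups.

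Rasgrp1 also differed between the lymph node groups, a comparison that did not serve to choose it. Hematogenous libraries averaged 108 ± 12.2 CPM and lymphatic libraries 37.4 ± 7.22 CPM (SD, n = 4 each), a 2.90-fold higher level in hematogenous libraries (log2 1.54 ± 0.177 SE, edgeR adjusted p = 8.92e-05). Every hematogenous library was above every lymphatic one. Without lymphatic 4, the lowest of its group, the log2 difference was 1.42 ± 0.12 (adjusted p = 8.96e-07). Genes of 4 to 6 kb of exon, the class of Rasgrp1, stood in lymphatic 4 at a median log2 of -0.14 relative to the rest of its group.

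Rasgrp2, also called CalDAG-GEFI, which activates Rap1 and is known for integrin activation in platelets and leukocytes, was present in all groups and higher in both lymph node groups. Its levels were 68.9, 78.1, 57.3 and 52.8 CPM in hematogenous 1 to 4, 59.0, 60.1, 94.3 and 84.8 CPM in lymphatic 1 to 4, and 27.5, 36.0, 30.6 and 32.3 CPM in culture 1 to 4. All lymph node libraries were above all culture libraries, while the lymph node groups overlapped. Rasgrp2 rose in hematogenous libraries over culture by log2 1.03 ± 0.178 (edgeR adjusted p = 5.46e-04), a fold of 2.05. In lymphatic libraries it rose by log2 1.24 ± 0.177 (adjusted p = 1.66e-04), a fold of 2.37. Between hematogenous and lymphatic libraries the log2 difference was -0.21 ± 0.173 and did not pass the test (adjusted p = 0.401).

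Rasgrp3, the family member known from B cells, where it acts downstream of the B cell receptor, was low throughout and lower in hematogenous libraries than in culture. It measured 0.803, 2.86, 2.05 and 0.9497 CPM in hematogenous 1 to 4, 2.37, 3.59, 2.29 and 2.36 CPM in lymphatic 1 to 4, and 3.58, 4.52, 4.84 and 4.26 CPM in culture 1 to 4. Hematogenous libraries lay below all culture libraries, and lymphatic 2 reached just into the culture range. The fall in hematogenous libraries was log2 -1.31 ± 0.35 (edgeR adjusted p = 0.0115). The lymphatic difference from culture was log2 -0.68 ± 0.325 (adjusted p = 0.145), and that of hematogenous from lymphatic libraries -0.64 ± 0.345 (adjusted p = 0.202). These values rest on few reads, 5 to 34 per hematogenous library, 29 to 90 per lymphatic and 26 to 46 per culture library.

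Rasgrp4, the paralog of mast cells and other myeloid cells, was near the limit of detection and did not pass the filter on low counts. It had 0 to 7 reads per hematogenous library, 2 to 5 per lymphatic and 1 to 3 per culture library. Mean levels were 0.295 ± 0.285, 0.237 ± 0.106 and 0.211 ± 0.0885 CPM in hematogenous, lymphatic and culture libraries (SD, n = 4 each), and no difference was detectable at this depth. The mast cell genes Cpa3, Mcpt4, Fcer1a and Ms4a2 summed to at most 0.294, 0.359 and 0 CPM in hematogenous, lymphatic and culture libraries, and the whole list of 9 mast cell and basophil markers to at most 0.589, 0.598 and 0.174 CPM. The platelet genes Pf4 and Ppbp reached at most 0.0978, 0.169 and 0 CPM in the same order, and the whole list of 7 platelet and megakaryocyte markers summed to 0.337 to 2.28, 1.12 to 1.97 and 0.86 to 1.96 CPM. Platelets are a known source of Rasgrp2, which was at 52.8 to 94.3 CPM in the lymph node libraries. The part of platelet transcripts in the Rasgrp2 result was not tested.

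**Figure D1:**
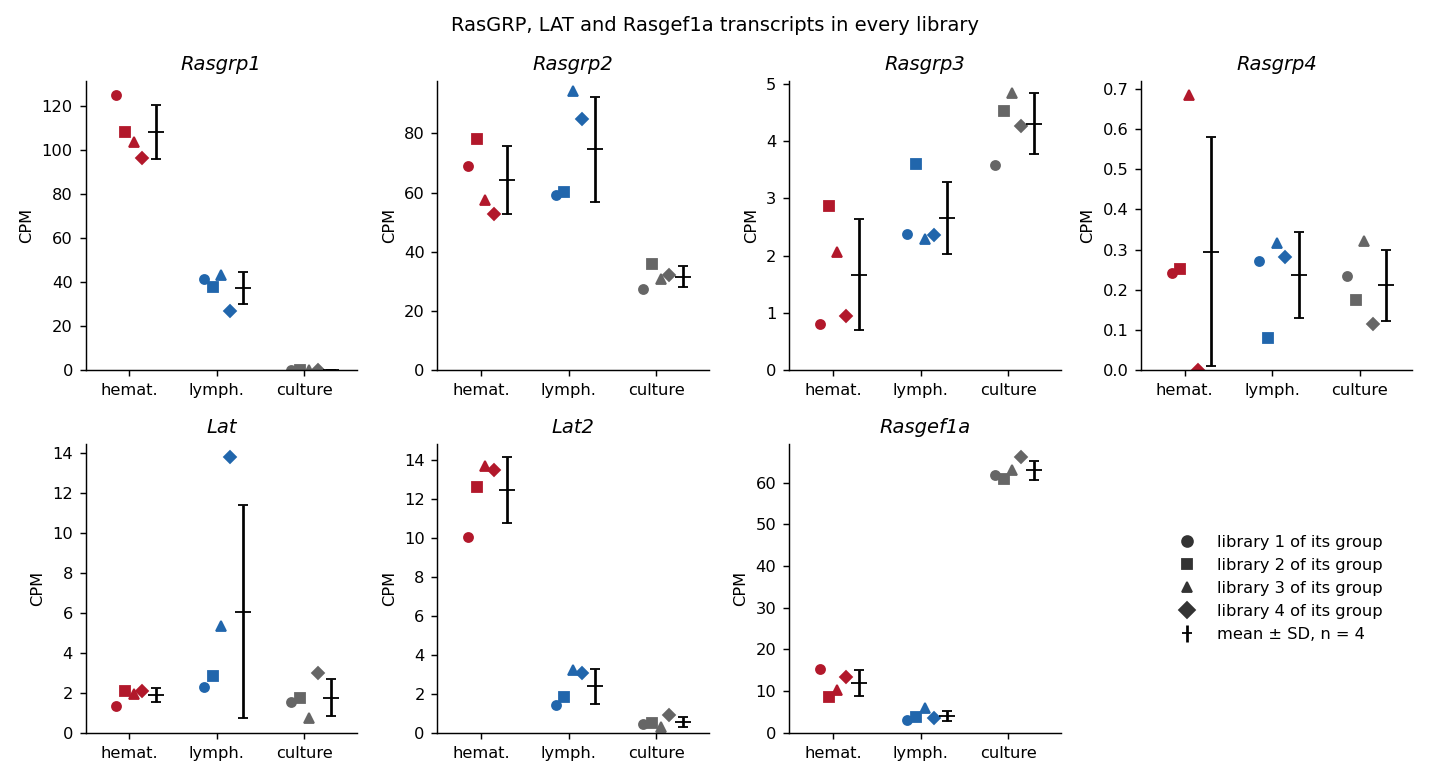
CPM of the 7 genes (vertical axes, linear, from 0) in every hematogenous, lymphatic and culture library, with mean ± SD (n = 4). Rasgrp1, Lat2 and Rasgef1a form 3 levels that do not overlap, and lymphatic 4 stands alone for Lat at 13.8 CPM.

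Divided by transcript length, the RasGRP family was mostly Rasgrp2, with Rasgrp3, in culture and mostly Rasgrp1 and Rasgrp2 in lymph nodes. With the principal transcript as length (5229 bases for Rasgrp1, 2296 for Rasgrp2), Rasgrp1 stood at 20.7 ± 2.33, 7.16 ± 1.38 and 0.0138 ± 0.0166 CPM per kb in hematogenous, lymphatic and culture libraries (SD, n = 4 each). Rasgrp2 stood at 28.0 ± 4.98, 32.5 ± 7.73 and 13.8 ± 1.54 CPM per kb in the same groups. Rasgrp1 thus made up 37.4% to 44.3% of the summed RasGRP level per kb in hematogenous, 12.1% to 23.2% in lymphatic and 0% to 0.199% in culture libraries. Rasgrp3 made up 0.314% to 1.10%, 0.971% to 2.22% and 5.73% to 7.10%. The order of Rasgrp1 and Rasgrp2 in lymph nodes depends on the length used. The annotated exons of Rasgrp2 together span 12384 bases, and on that length Rasgrp1 made up 73.9% to 79.6% in hematogenous and 39.9% to 58.7% in lymphatic libraries, against 0% to 0.83% in culture. On that length Rasgrp2 made up 73.8% to 77.7% and Rasgrp3 20.7% to 24.7% in culture. On both lengths the hematogenous share was above the lymphatic share in every library, and the lymphatic share above that of culture.

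**Figure D2:**
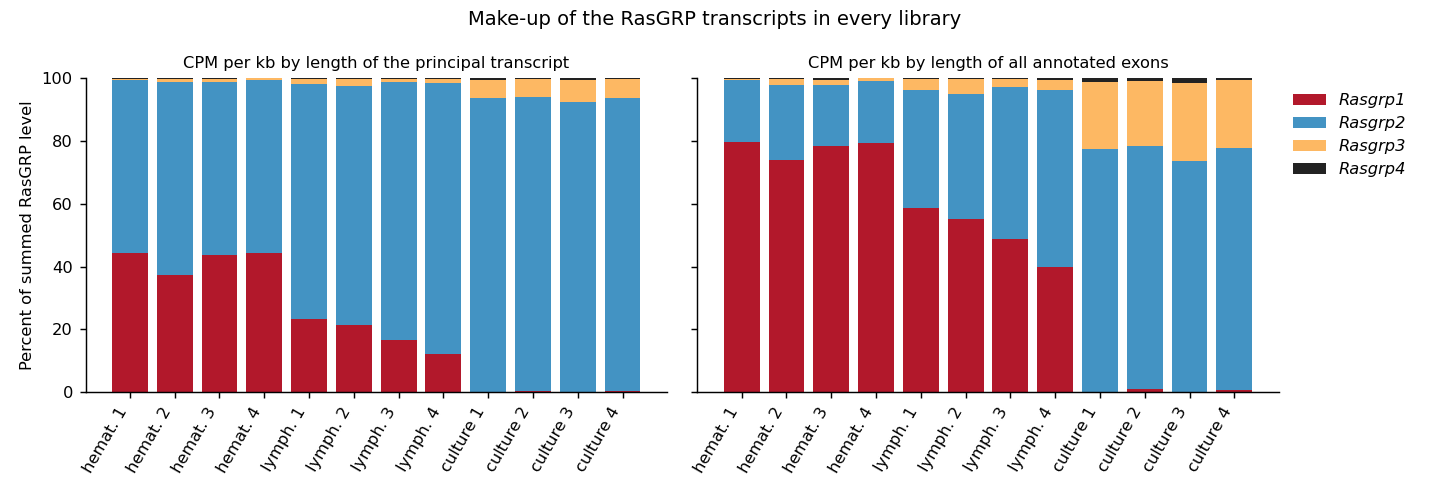
Percent of the summed RasGRP level per kb taken by each of the 4 paralogs, in every library, with the principal transcript (left) or all annotated exons (right) as length. Rasgrp1 takes 37.4% to 44.3% of the level in hematogenous, 12.1% to 23.2% in lymphatic and at most 0.199% in culture libraries on the left.

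Lat2, the adaptor of B and myeloid cells, rose in both lymph node groups and most in the hematogenous one. Its levels were 10.04, 12.6, 13.7 and 13.5 CPM in hematogenous 1 to 4, 1.42, 1.83, 3.23 and 3.09 CPM in lymphatic 1 to 4, and 0.467, 0.521, 0.322 and 0.922 CPM in culture 1 to 4. The 3 groups did not overlap. Lat2 rose over culture by log2 4.47 ± 0.351 in hematogenous libraries (edgeR adjusted p = 4.44e-07), a fold of 22.2, and by log2 2.09 ± 0.366 in lymphatic libraries (adjusted p = 8.31e-04), a fold of 4.26. Between hematogenous and lymphatic libraries it differed 5.21-fold (log2 2.38 ± 0.278, adjusted p = 9.34e-05).

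Myeloid transcripts were present beside Lat2. The neutrophil genes S100a8 and S100a9, like Lat2, had their highest sums in hematogenous libraries, and the macrophage genes did not. Lyz2, the lysozyme of myeloid cells, was at 7.03 to 13.99 CPM in hematogenous, 11.2 to 42.1 CPM in lymphatic and 0 CPM in all culture libraries. The macrophage genes Lyz2, C1qa and Adgre1 together summed to 7.41 to 14.97 CPM in hematogenous, 12.4 to 46.7 CPM in lymphatic and 0 to 0.521 CPM in culture libraries, where 2 of the 3 were at 0. The ratio of Lat2 to Lyz2 was 0.781 to 1.92 in hematogenous and 0.0511 to 0.152 in lymphatic libraries, and 3 of 4 lymphatic libraries had more Lyz2 than any hematogenous one. The whole list of 11 macrophage and monocyte markers summed to 19.4 to 27.6, 28.2 to 72.4 and 14.8 to 19.9 CPM in hematogenous, lymphatic and culture libraries, with 6 markers at 0 in culture. Of the 11, 5 were tested, and 3 rose and 2 fell over culture in each lymph node group. Csf1r fell to 1.49 CPM in hematogenous libraries against 8.54 CPM in culture, and Itgam to 0.809 against 4.89 CPM. Between hematogenous and lymphatic libraries 2 of the 5 were lower and 0 higher. The neutrophil genes S100a8, S100a9 and Ly6g summed to 0.589 to 1.53 CPM in hematogenous, 0.0399 to 0.237 CPM in lymphatic and 0 to 0.115 CPM in culture libraries, with Ly6g at 0 in all groups. The whole list of 9 neutrophil markers summed to 0.589 to 2.65, 0.281 to 0.631 and 0 to 0.691 CPM in these groups, and these ranges overlapped. None of the 9 passed the filter on low counts, so none was tested. The part of neutrophil transcripts in the Lat2 result was not tested. In bulk libraries fewer cells of a type and less RNA per cell cannot be told apart.

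Lat, the adaptor of T cells, was low in hematogenous and culture libraries and variable in the lymphatic group. It measured 1.36, 2.104, 1.96 and 2.09 CPM in hematogenous 1 to 4, 2.30, 2.83, 5.36 and 13.8 CPM in lymphatic 1 to 4, and 1.56, 1.74, 0.752 and 3.00 CPM in culture 1 to 4. Lymphatic 4 alone held 246 of the 419 Lat reads of its group, and lymphatic 1 and 2 lay within the culture range. Lat has 2767 bases of annotated exon and a principal transcript of 1235 bases. Genes of 2 to 4 kb of exon stood in lymphatic 4 at a median log2 of 0.31 relative to the rest of its group. Those of under 2 kb of exon stood at 0.84. The part of length in these values was not tested. Lat was called higher in lymphatic libraries than in culture (log2 1.79 ± 0.543, edgeR adjusted p = 0.0254) and lower in hematogenous than in lymphatic libraries (-1.71 ± 0.535, adjusted p = 0.0357). Without lymphatic 4 these became log2 0.97 ± 0.376 (adjusted p = 0.0551) and -0.88 ± 0.37 (adjusted p = 0.0816), and neither passed. The call of lymphatic over culture was also lost without culture 1, 2 or 3 (adjusted p = 0.0686, 0.06 and 0.0775), and that between the lymph node groups without any single hematogenous library (0.0697 to 0.111). Hematogenous libraries and culture differed by log2 0.09 ± 0.591 (adjusted p = 0.936).

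T cell transcripts were highest where Lat was highest and Rasgrp1 lowest among the lymph node libraries. The genes of the T cell receptor and CD3 (Trac, Trbc1, Trbc2, Cd3d, Cd3e and Cd3g) summed to 3.53, 7.66, 5.09 and 3.23 CPM in hematogenous 1 to 4, 10.9, 18.6, 21.3 and 66.2 CPM in lymphatic 1 to 4, and 0.544, 0, 0.107 and 0.346 CPM in culture 1 to 4. Lymphatic 4, with the most T cell receptor transcripts, had the most Lat and the least Rasgrp1 of all lymph node libraries. For each CPM of these T cell genes, hematogenous libraries held 0.275 to 0.647 CPM of Lat, above the lymphatic range, and 14.1 to 35.5 CPM of Rasgrp1, and lymphatic libraries held 0.152 to 0.252 CPM of Lat (0.209 in lymphatic 4) and 0.409 to 3.81 CPM of Rasgrp1. Of the whole list of 21 T cell markers, 20 were tested, of which 16 rose in hematogenous and 19 in lymphatic libraries over culture, with 0 lower in either. Between hematogenous and lymphatic libraries 15 of the 20 were lower and 1 was higher, against a higher Rasgrp1. The list summed to 115 to 216, 119 to 208 and 51.2 to 63.3 CPM in hematogenous, lymphatic and culture libraries, with 9 markers at 0 in culture, where Il7r alone held 44.1 to 53.0 CPM. Culture libraries held 63 Lat reads beside 11 reads of T cell receptor and CD3 genes. The part of T cell transcripts in the Lat calls was not tested.

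**Figure D3:**
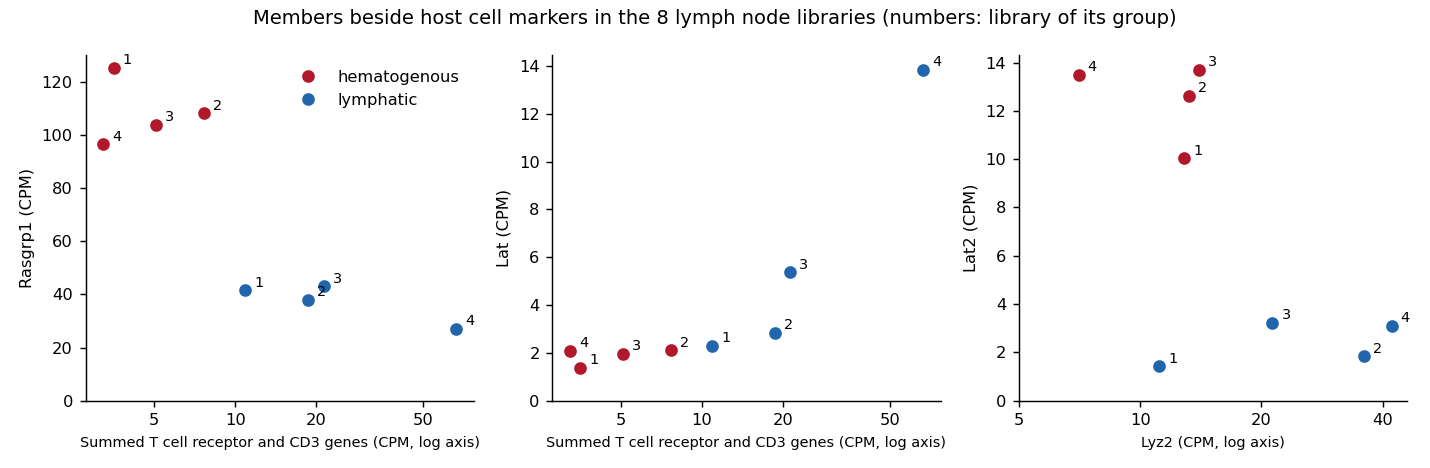
Rasgrp1 and Lat against the summed CPM of 6 T cell receptor and CD3 genes, and Lat2 against Lyz2 (horizontal axes logarithmic), in the 4 hematogenous and 4 lymphatic libraries. Lymphatic 4 is farthest right in each panel, with the highest Lat (13.8 CPM) and the lowest Rasgrp1 (27.1 CPM).

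Rasgef1a ran opposite to Rasgrp1 between lymph nodes and culture, and with it between the lymph node groups. Its levels were 15.3, 8.59, 10.2 and 13.5 CPM in hematogenous 1 to 4, 2.98, 3.75, 5.91 and 3.54 CPM in lymphatic 1 to 4, and 61.8, 60.8, 63.1 and 66.1 CPM in culture 1 to 4. The 3 groups did not overlap, with culture highest and lymphatic lowest. Hematogenous libraries stood at log2 -2.41 ± 0.21 and lymphatic libraries at -3.97 ± 0.225 relative to culture. In the comparison not used to choose it, Rasgef1a was 2.95-fold higher in hematogenous than in lymphatic libraries (log2 1.56 ± 0.219, edgeR adjusted p = 3.03e-04). Per kb of principal transcript it stood at 5.34 ± 1.38, 1.82 ± 0.578 and 28.3 ± 1.05 CPM in hematogenous, lymphatic and culture libraries (SD, n = 4 each), which in culture was above Rasgrp2.

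Of the 6 genes that passed the filter on low counts, 3 were higher in hematogenous than in lymphatic libraries (Rasgrp1, Lat2 and Rasgef1a), 1 was lower (Lat) and 2 were not called (Rasgrp2 and Rasgrp3). Among all 13535 genes tested, 22.3% were called in this comparison. Of the 4 genes tested against culture, Rasgrp2 and Lat2 rose and Rasgrp3 fell in hematogenous libraries, where 27.8% of all genes were called. Rasgrp2, Lat2 and Lat rose in lymphatic libraries, where 26.4% were called. Libraries did not overlap for 4 of the 6 genes between the lymph node groups (3 higher, 1 lower), against 24.6% of all genes (13.1% higher, 11.5% lower). They did not overlap for 5 of the 6 between hematogenous libraries and culture (3 higher, 2 lower), against 43.6% of all genes (21.8% higher, 21.8% lower), and for 4 of the 6 between lymphatic libraries and culture (3 higher, 1 lower), against 30.1% (14.6% higher, 15.5% lower). The last 2 counts include Rasgrp1 and Rasgef1a, whose values were known, and nothing is read from them. Both comparisons with culture share the 4 culture libraries.

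**Figure D4:**
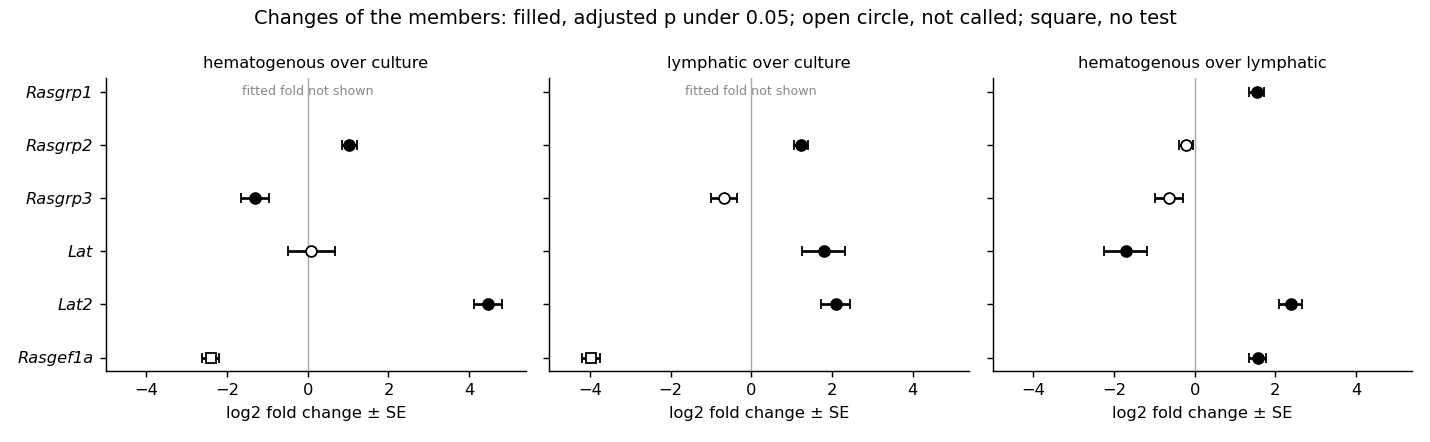
Log2 fold change ± SE of each gene that passed the filter, for hematogenous over culture, lymphatic over culture and hematogenous over lymphatic libraries. Rasgrp1, Lat2 and Rasgef1a lie at log2 1.54, 2.38 and 1.56 in the right panel and Lat at -1.71; the fitted fold of Rasgrp1 over culture is not drawn because culture held 2 reads.

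The genes most like Rasgrp1 across the 12 libraries by Pearson correlation of log2 CPM were the complement protease C1ra (r = 0.991), the integrin chain Itgal (0.988), the kynurenine enzyme Kmo (0.988), the peptidase Dpp4 (0.987) and Hsd17b13 (0.986), of 8490 genes compared. Itgal, the LFA-1 chain, stood at 37.8 ± 3.77, 18.7 ± 4.59 and 1.64 ± 0.582 CPM in hematogenous, lymphatic and culture libraries (SD, n = 4 each). Those most like Rasgef1a were the thrombomodulin gene Thbd (0.986), the IgM Fc receptor Fcmr (0.984), Zc3h12d (0.981), the sterol enzyme Cyp51 (0.979) and the TGF-beta receptor Tgfbr2 (0.979). Fcmr stood at 192 ± 18.5, 113 ± 6.03 and 519 ± 22.1 CPM in the same groups. The libraries fall into 3 groups, so these correlations describe mainly the order of the groups.

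Around these genes, 141 genes of the Ras pathway in 9 lists were followed, of which 116 were tested. In hematogenous libraries 30 were higher and 27 lower than in culture, 49.1% called against 27.8% of all genes. In lymphatic libraries 23 were higher and 35 lower, 50% called against 26.4%. Between hematogenous and lymphatic libraries 30 were higher and 15 lower, 38.8% called against 22.3%, with a median log2 difference of 0.23 against -0.03 for all genes.

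The list of kinases upstream of LAT and RasGRP, which also holds the phosphatases Ptpn6 and Ptprc, was mostly higher in lymph nodes. Of 14 tested, 9 rose and 2 fell in hematogenous and 8 rose and 2 fell in lymphatic libraries over culture, with medians of log2 1.03 and 0.48 against 0.00 and 0.04 for all genes. Syk, which starts B cell receptor signalling, stood at 825 ± 123, 482 ± 144 and 321 ± 11.3 CPM in hematogenous, lymphatic and culture libraries (SD, n = 4 each). It rose by log2 1.36 ± 0.194 in hematogenous (edgeR adjusted p = 1.14e-04) and 0.59 ± 0.192 in lymphatic libraries (0.0366), and was higher in hematogenous than in lymphatic ones (0.78 ± 0.192, 0.0108). The lymphatic call over culture was lost on leaving out any single library other than hematogenous 1, hematogenous 2 or lymphatic 4 (adjusted p = 0.0517 to 0.0988). The SRC family kinase Lck rose by log2 2.34 ± 0.244 and 1.75 ± 0.241 over culture. The kinases Tec (-1.93 ± 0.128 and -1.66 ± 0.126) and Fyn (-1.60 ± 0.0964 and -1.59 ± 0.0957) fell in both. The phosphatase Ptpn6 is among the 9 that rose in hematogenous libraries (log2 0.42 ± 0.113, edgeR adjusted p = 0.0118). Ptprc was not called in them (adjusted p = 0.178), and neither was called in lymphatic libraries over culture (0.819 for Ptpn6 and 0.137 for Ptprc). Lck and Zap70 of this list are among the T cell markers too.

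Genes that make or remove diacylglycerol, the ligand of the RasGRP1 C1 domain, changed unevenly. Of 10 tested, 1 rose and 2 fell in hematogenous and 1 rose and 5 fell in lymphatic libraries over culture, and without lymphatic 4 the hematogenous count was 1 and 5. Dgka, the kinase that converts diacylglycerol to phosphatidic acid and limits RasGRP1 in T cells, was the gene that rose. It stood at 52.7 ± 4.46, 38.4 ± 7.79 and 11.6 ± 1.03 CPM in hematogenous, lymphatic and culture libraries (SD, n = 4 each), log2 2.19 ± 0.153 (edgeR adjusted p = 1.64e-07) and 1.73 ± 0.151 (2.04e-06) over culture. Plcg1 fell in both (log2 -0.61 ± 0.165 and -0.77 ± 0.164). Plcg2, the phospholipase C gamma of B cells, fell in lymphatic libraries (-0.59 ± 0.149, adjusted p = 0.00982), and its hematogenous difference from culture was 0.10 ± 0.149 (0.671). Protein kinases C and D, which also have a C1 domain, were listed with Unc13d. They gave 1 higher and 2 lower of 9 in hematogenous and 4 higher and 4 lower in lymphatic libraries over culture. The 4 that rose in lymphatic libraries were Prkcb, Prkch, Prkcq and Unc13d, at mean levels of 1.80 to 4.64 CPM there. Prkca fell in both (-0.93 ± 0.19 and -1.47 ± 0.191).

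Adaptors beside LAT were higher in 9 and lower in 2 of 20 in hematogenous libraries over culture (12 and 5 without lymphatic 4), and higher in 5 and lower in 4 in lymphatic libraries. Pag1, a membrane adaptor that recruits the inhibitory kinase CSK, stood at 105 ± 8.67, 43.7 ± 14.0 and 106 ± 10.2 CPM in hematogenous, lymphatic and culture libraries (SD, n = 4 each). It fell in lymphatic libraries (log2 -1.28 ± 0.206, edgeR adjusted p = 4.41e-04) and was higher in hematogenous than in lymphatic ones (1.26 ± 0.206, 8.66e-04). Grb2, which brings SOS to LAT, was higher in hematogenous than in lymphatic libraries (0.81 ± 0.113, 2.93e-04). Grap2, the GADS adaptor that binds LAT in T cells, was at 1.85 to 4.97 CPM in hematogenous, 4.87 to 11.1 CPM in lymphatic and 0 to 0.115 CPM in culture libraries. The SYK-binding adaptor Sh3bp2 fell in both groups (-1.85 ± 0.137 and -2.17 ± 0.137).

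Genes of the GTPases, of other exchange factors and of GTPase activating proteins were called in both directions. Of 10 Ras and Rap genes, 1 rose and 2 fell in hematogenous libraries over culture (3 and 3 without lymphatic 4) and 1 rose and 1 fell in lymphatic libraries. Rap2a fell in both (log2 -1.07 ± 0.169 and -0.69 ± 0.164) and Rap1a rose in hematogenous libraries (0.47 ± 0.125). The 13 other exchange factors included Ralgds, Rgl1 and Rgl2, which act on Ral. Of the 13, 2 rose and 2, with Rgl1, fell in hematogenous libraries, and 2 rose and 3, with Ralgds, fell in lymphatic libraries. These counts became 4 and 4, and 4 and 5, without lymphatic 4. Without culture 1 they were 0 and 1, and 2 and 1. Without hematogenous 2 or 4 the first pair was 1 and 1, and without culture 2 the second was 2 and 1. Rapgef3, the cAMP-regulated exchange factor EPAC1 of Rap, fell to 9.74 ± 4.43 in hematogenous and 15.2 ± 4.97 in lymphatic libraries, against 73.1 ± 12.5 CPM in culture (SD, n = 4 each), log2 -2.89 ± 0.301 (edgeR adjusted p = 6.42e-06) and -2.27 ± 0.287 (5.96e-05). Of 14 GTPase activating proteins, 3 rose and 4 fell in hematogenous (1 and 3 without culture 4) and 1 rose and 6 fell in lymphatic libraries. Sipa1l2 fell in both (-1.70 ± 0.262 and -1.20 ± 0.252). Without lymphatic 4, Rasa2 and Sipa1l1 were also called lower in hematogenous libraries than in culture (edgeR adjusted p = 0.00202 and 0.00281).

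In the RAF, MEK and ERK cascade 2 of 12 genes rose and 4 fell in hematogenous libraries over culture, and 1 rose and 2 fell in lymphatic libraries (1 and 4 without lymphatic 4). Ksr1, a scaffold that holds RAF, MEK and ERK together, stood at 7.88 ± 1.16, 4.54 ± 1.18 and 3.32 ± 0.715 CPM in hematogenous, lymphatic and culture libraries (SD, n = 4 each). It was higher in hematogenous libraries than in culture (log2 1.26 ± 0.238, edgeR adjusted p = 0.00115) and than in lymphatic libraries (0.80 ± 0.225, 0.0209, and 0.0756 without hematogenous 1), and its lymphatic difference from culture was 0.45 ± 0.237 (0.18). Shoc2, a scaffold that helps activate RAF, fell in hematogenous libraries over culture (-0.84 ± 0.186, 0.00359).

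Of the ERK target and feedback genes called, most were lower in lymph nodes than in culture and most were higher in hematogenous than in lymphatic libraries. Of 14 tested, 2 rose and 7 fell in hematogenous and 0 rose and 8 fell in lymphatic libraries over culture, with medians of log2 -0.76 and -1.003 against 0.00 and 0.04 for all genes. Between hematogenous and lymphatic libraries 7 were higher and 2 lower, with a median of 0.73 against -0.03. The transcription factor Egr2 fell to 2.77 ± 0.965 in hematogenous and 1.41 ± 0.458 in lymphatic libraries, against 27.1 ± 1.95 CPM in culture (SD, n = 4 each), log2 -3.28 ± 0.269 (edgeR adjusted p = 7.22e-07) and -4.29 ± 0.279 (1.75e-07). Egr1 stood at 12.2 ± 0.83, 5.52 ± 0.976 and 4.10 ± 0.605 CPM in the same groups and was higher in hematogenous libraries than in both others (1.15 ± 0.171 over lymphatic, 4.57e-04, and 1.59 ± 0.181 over culture, 1.45e-05). The ETS factor Etv5 was higher in hematogenous than in lymphatic libraries (1.19 ± 0.156, 1.96e-04), and Fos was lower (-1.21 ± 0.229, 0.00232). The ERK phosphatase gene Dusp5 fell in both groups (-1.71 ± 0.181 and -0.94 ± 0.175). Dusp6, another ERK phosphatase, named after its values were seen, rose in hematogenous libraries over culture (1.18 ± 0.126, 8.55e-06), and its lymphatic difference was 0.35 ± 0.125 (0.0522, and 0.0372 without lymphatic 4).

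**Figure D5:**
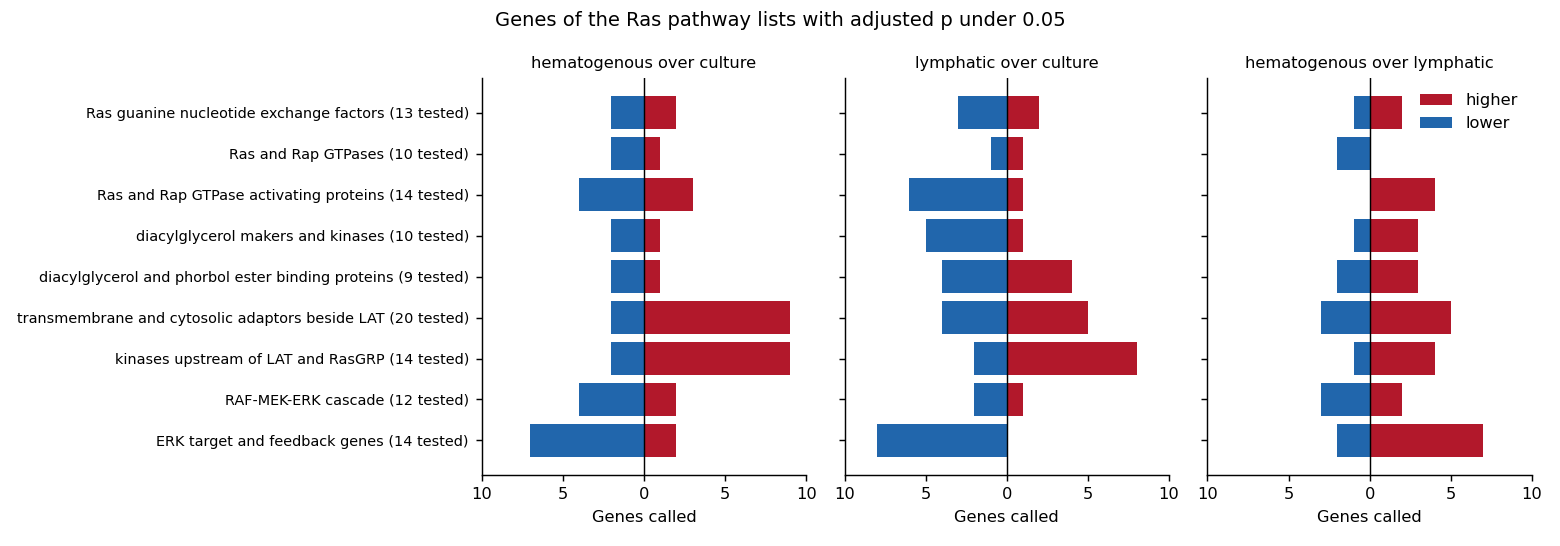
Number of genes called higher (right of 0) or lower (left of 0) at an edgeR adjusted p under 0.05 in each of the 9 lists, for hematogenous over culture, lymphatic over culture and hematogenous over lymphatic libraries. ERK target genes show 7 lower in the first panel, 8 lower in the second and 7 higher in the third.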

How the data were processed

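Raw counts per gene, deposited by the authors without normalization, were read for 12 libraries and 56748 Ensembl gene IDs. Stranded, single-end poly(A) reads are stated in the labels. The submitters' processing notes name Trimmomatic 0.39, HISAT2 2.1.0, HTSeq 2.0.2 and the build GRCm39. The strand setting is not given in the sources used here. The 5 summary lines, which held 30.3% to 36.5% of each library, were left out.

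Groups came from the titles. edgeR 4.0.16 quasi-likelihood F tests used 1 model of the 3 groups over the 12 libraries, with TMM factors and filterByExpr (13535 genes, 9 residual degrees of freedom), two-sided, with Benjamini-Hochberg adjustment over all genes of a comparison and a threshold of 0.05. The fit was tested on simulated data. Each SE was derived from the log2 fold change divided by the square root of F. CPM use the TMM library sizes. Medians by exon length use genes of mean CPM 5 or more and a pseudocount of 0.5. Lengths came from GENCODE M21, an older build. DESeq2 1.42.0, limma 3.58.1, DESeq2 size factors, no filter, fits of 8 libraries, a replicate block and leaving out each library were alternatives.

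The genes, lists and tests were chosen with earlier results of these data known. Named pathway genes are the 3 called genes of each list and comparison with the largest change, at a mean of at least 5 CPM in whichever group was higher. Some were left unnamed for length, and a few results are not reported here. Genes like Rasgrp1 and Rasgef1a needed mean CPM of 10 or more in their highest group and used log2 CPM with a prior count of 2. Intervals cover counting error only.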

Additional observations from a re-analysis of the deposited data

Results flagged for a closer look

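Rasgrp3 in lymphatic 2, at 3.59 CPM, stood far from the other 3 lymphatic libraries at 2.29 to 2.37 CPM. Of 21 sets of 4 libraries checked in this way this was the only one that stood out, and chance gives about 5% of such sets.

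The changes of 4 genes from culture differed between the lymph node groups, by the direct edgeR test of hematogenous against lymphatic libraries. The log2 differences were 1.54 for Rasgrp1, 2.38 for Lat2, 1.56 for Rasgef1a and -1.71 for Lat. The Lat difference was -0.88 without lymphatic 4, where it did not pass the test (adjusted p = 0.0816).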

How the results depend on the processing

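Calls of Rasgrp2, Rasgrp3, Lat2, Rasgrp1 and Rasgef1a held in all 18 alternatives of each tested comparison. Lat over culture in lymphatic libraries lost its call in 6 of 18, and hematogenous against lymphatic in 7 of 18, also with limma-voom (adjusted p = 0.0959 and 0.135) and in fits of the 8 libraries compared (0.0725 and 0.064). Lat in hematogenous libraries over culture ran from log2 -0.17 to 0.47 when a library was left out, and was negative without culture 3. In fits of the 8 libraries compared, 6344 genes were called for hematogenous over culture against 3760, and 1734 for hematogenous against lymphatic against 3012, with 26 in place of 45 pathway genes. Leaving out a library gave 3125 to 5930, 2664 to 4908 and 2002 to 4333 genes for hematogenous over culture, lymphatic over culture and hematogenous over lymphatic (highest without lymphatic 4), and 50 to 81, 53 to 70 and 33 to 64 pathway genes. Same-numbered libraries did not deviate together (correlations -0.181 to 0.0919 over 12 pairs), and the replicate block gave 3341, 2960 and 2309 genes, and changed no call of the 7 genes. Of 486 counts for the 9 lists, 441 stayed within 1.5 times. The cause was not tested. Low counts limit Rasgrp3, Rasgrp4 and Lat.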
